A study of Mus musculus with 4 samples.

Results

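The Myofibrobl cells are the 1799 cells, of 34447 in all, to which the deposited annotation gives that name, and they were taken as annotated, with no choice on expression. The annotation sets them apart from the immune classes in tumours sorted for CD45+ cells, although 222 of them formed a cluster led by macrophage genes, and they were found in each of the 4 libraries. The tumours were YUMM1.7-OVA RTT, a mouse melanoma line driven by mutant Braf with loss of Cdkn2a, made to express ovalbumin and grown to resistance against targeted therapy. They grew in Rag2-/- mice, which make no T or B cells of their own, and all received OT-1 CD8+ T cells, which recognise ovalbumin, by adoptive transfer (ACT) on day 7 and were harvested on day 10, 72 h after ACT. The CTRL tumours (554 Myofibrobl cells) carried an empty mCherry and puromycin resistance vector. The IRF3/7 tumours (172 cells) carried a pair of lentiviral vectors that drive Irf3 with mCherry and Irf7 with puromycin resistance from a viral promoter in the cancer cells, which were selected and sorted in bulk rather than grown from a single clone. The COX2i tumours (913 cells) were the mCherry line in mice given celecoxib, an inhibitor of the cyclooxygenase COX2, and the COX2i + 5-AZA tumours (160 cells) were the mCherry line with celecoxib and the DNA methyltransferase inhibitor 5-azacytidine. Each library was a pool of 3 tumours and there was 1 library per group, so every difference below lies between single libraries, has no replicate check and could not be tested.

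By way of background, IRF3 and IRF7 are transcription factors that switch on the type I interferon genes after sensing of viral nucleic acid. Secreted interferon then acts on the same and on neighbouring cells through STAT2, IRF9 and their partners, and raises Irf7 itself together with antiviral effectors, guanylate-binding proteins and the machinery of antigen presentation on MHC class I. Cancer cells, fibroblasts and endothelial cells all carry the receptors for interferons, so a tumour's non-immune compartment can both make and receive this signal.

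Levels are sums of unique molecular identifiers (UMIs) over the Myofibrobl cells of a library, scaled to the same total of UMIs and given as CPM, and differences are log2 ratios of CPM. Intervals are exact 95% intervals and cover counting error only, and a gene is said to have risen or fallen where its level differed at least 2-fold. The 4 libraries held 9635624, 4484188, 11696395 and 2815049 UMIs of Myofibrobl cells in CTRL, IRF3/7, COX2i and COX2i + 5-AZA, so that 3 UMIs, the floor used for a count of 0, lay between 0.256 and 1.07 CPM. The median Myofibrobl cell had between 11036 and 20862.5 UMIs, more than the median cell of its library (3168 to 7502). A droplet can hold cells of several libraries. Of the 1799 cells, 513 (28.5%) had a droplet barcode that was also present in another library. The share over all 34447 cells was 29.1%. Each comparison was repeated without these 513 cells.

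The name was set against marker lists. The 6 marker genes of the class (Ccn1, Col1a1, Col3a1, Clu, Mgp and Nppb) summed to 9739, 10363, 13443 and 15556 CPM in CTRL, IRF3/7, COX2i and COX2i + 5-AZA, and to between 57.1 and 227 CPM in the monocytes and macrophages of the same libraries. A list of 10 myofibroblast and smooth muscle genes, of which 6 were in the table, summed to 749, 821, 809 and 851 CPM, against 177 to 261 CPM in monocytes and macrophages. Most of that came from Tpm2 (341 to 392.3 CPM) and Cnn2 (349 to 479 CPM). Acta2, smooth muscle actin, lay between 9.24 and 20.4 CPM, Tagln between 4.77 and 11.1 CPM, Myl9 between 5.09 and 9.95 CPM and Des between 0 and 4.53 CPM. The name is used here only as the annotation gives it. Of a list of 15 melanocyte genes only 6 were in the table, and 5 of those were under 10 CPM in every library, Mitf being the exception at 17.8 to 32.1 CPM. A list of neural crest and dedifferentiated melanoma genes, led by Aqp1, Hmga2, Axl and Sox9, summed to between 3878 and 4965 CPM, against 296 to 471 CPM in monocytes and macrophages. Cdkn2a, which the melanoma line lacks, was at 0 CPM in 3 libraries and at 0.684 CPM in COX2i.

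Immune transcripts were present at a low level. Pan-immune markers summed to 1900, 1687, 2368 and 1979 CPM in the order above, 7.19% to 12.6% of their level in monocytes and macrophages. Arhgdib alone gave 671, 1209, 588 and 537 CPM of those sums, and in IRF3/7 its level was like that of monocytes and macrophages (1196 CPM). Macrophage markers summed to 2011, 393, 2591 and 1858 CPM, so IRF3/7 was the library with least of them. Neutrophil markers stood at 215 CPM in CTRL, 332 CPM in IRF3/7, 10.1 CPM in COX2i and 46.5 CPM in COX2i + 5-AZA. In IRF3/7 S100a8 alone gave 295 CPM of that sum and S100a9 gave 28.8 CPM. In the cluster that held most IRF3/7 cells (cluster 5 below), S100a8 stood at 306 CPM and S100a9 at 4.01 CPM. The part of these transcripts in the differences below was not tested except by leaving cells out.

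The Myofibrobl cells were not uniform. They were clustered again on their own, with 191 interferon genes left out so that the interferon response itself would not set the clusters, and fell into 10 clusters. Cluster 1 (377 cells) was led by Postn, Sulf1 and Tbx2. Cluster 2 (355 cells) was led by histone and mitotic genes, and cluster 6 (136 cells) by Ccnf, Troap and other division genes. Cluster 3 (320 cells) was led by Trib3, Ddit3 and Asns, genes of the integrated stress response, and cluster 7 (125 cells) by Aox1 and Ogt. Cluster 4 (222 cells) was led by Apoe, C1qa and Fcrls, which macrophages express, and drew a median of 1.65% of its UMIs from immune lists, with macrophage markers summing to 10312 CPM and pan-immune markers to 7384 CPM. Whether these cells are doublets was not tested. Cluster 8 (75 cells) was led by Epcam, Krt7 and Krt18, genes of simple epithelia, and by Ltf. Its cells were shallow, with a median of 2450 UMIs, and it was left without a name. Cluster 9 (36 cells) was fibroblast-like, with fibroblast markers summing to 13199 CPM, and cluster 10 (16 cells) was endothelial-like, with endothelial markers at 8957 CPM. Over all Myofibrobl cells the fibroblast markers summed to only 1486 to 2191 CPM and the endothelial markers to 37.0 to 149 CPM.

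The libraries filled these clusters unequally. Of the 172 IRF3/7 cells, 136 (79.1%, interval 72.2% to 84.9%) lay in cluster 5, which held 137 cells and took 1 cell from CTRL and none from the other libraries. Cluster 5 was led by Irf7, Cmpk2 and Ifi44 and also by Il1rl1 and Ramp3, and since it is almost wholly of 1 library it may be that library rather than a type. Its share of the IRF3/7 cells was 64.5% when the clusters were made finer (Leiden resolution 1) and 87.8% when interferon genes were kept. Cluster 1 held 62 cells of CTRL, 0 of IRF3/7, 274 of COX2i and 41 of COX2i + 5-AZA, and cluster 7 likewise held none of IRF3/7. Clusters 4, 8, 9 and 10, which were led by macrophage, epithelial, fibroblast and endothelial genes, held 103, 25, 185 and 36 cells in the order above, and results were repeated without them.

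**Figure D1:**
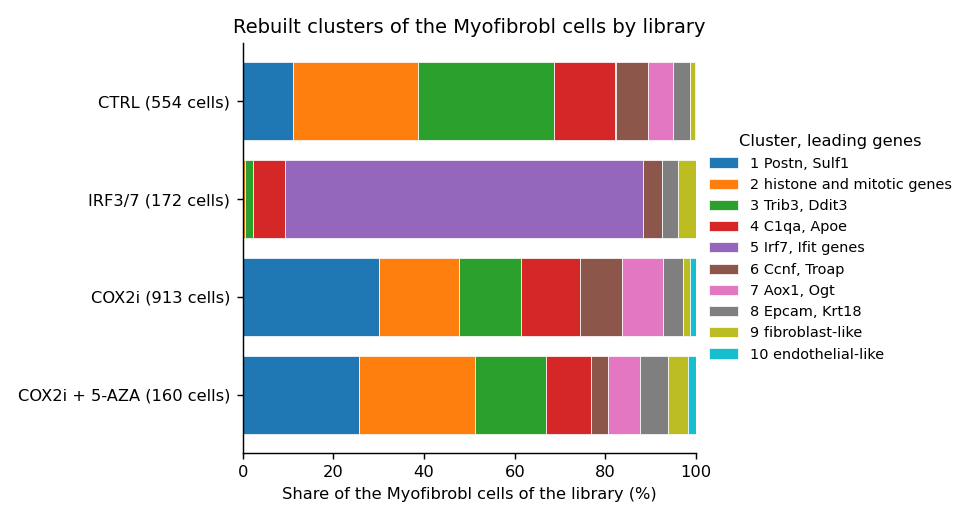
Share of the Myofibrobl cells of each library (horizontal axis, percent) that fell into each of the 10 rebuilt clusters (colours, named by leading genes). Cluster 5 takes 79.1% of the IRF3/7 bar and almost nothing of the other bars, whereas cluster 1 is absent from IRF3/7.

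The forced genes were examined first. Irf7 (ENSMUSG00000025498, chr7:141262706-141266481, minus strand, mm10) gave 79 UMIs in CTRL, 66857 in IRF3/7, 225 in COX2i and 189 in COX2i + 5-AZA, which are 8.20, 14910, 19.24 and 67.1 CPM. Irf3 (ENSMUSG00000003184, chr7:44997648-45002848, plus strand, mm10) gave 301, 2618, 410 and 69 UMIs, or 31.2, 584, 35.1 and 24.5 CPM. The log2 ratio of IRF3/7 to CTRL was 10.83 (10.51 to 11.17) for Irf7 and 4.22 (4.05 to 4.40) for Irf3. The genes parted in the drug-treated libraries: Irf7 rose there, by 1.23 in COX2i against CTRL and by 1.80 in COX2i + 5-AZA against COX2i, while the log2 ratio of Irf3 was 0.17 and -0.52 in the same comparisons. In cluster 4 Irf7 stood at 32.2 CPM in CTRL and 60.9 CPM in COX2i. Without clusters 4, 8, 9 and 10 the first of these ratios was 0.87, within 2-fold, and the second was 2.85. In cluster 1 alone Irf7 stood at 13.4 CPM in CTRL and 7.81 CPM in COX2i, on few UMIs.

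Both genes were read together in nearly all IRF3/7 cells. Of the 172 cells, 158 had UMIs of both, 12 of Irf7 only, 1 of Irf3 only and 1 of neither. Irf7 was detected in 98.8% of IRF3/7 cells and in 7.58% of CTRL cells. When each cell was thinned to 2000 UMIs, which left out 2 IRF3/7 and 13 CTRL cells, the shares were 97.6% and 0.739%. The same thinning gave 54.1% and 8.69% for Irf3. The level per IRF3/7 cell spread widely, with an Irf7 median of 13276 CPM, quartiles of 7586 and 18195 CPM and a maximum of 51646 CPM. In 163 of the 172 cells it was above 716 CPM, the highest value of any CTRL cell. In Irf3 the median was 401 CPM, with quartiles of 201 and 699 CPM.

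In the rest of the IRF3/7 library Irf3 stayed near the level of CTRL and Irf7 did not. In the 6 other annotated classes of that library with at least 50 cells, Irf3 lay between 33.7 and 66.7 CPM, close to the 28.9 to 58.3 CPM of the 8 such classes of CTRL. Irf7, an interferon-stimulated gene in its own right, lay between 971 and 3354 CPM in those 6 classes and between 16.3 and 1295 CPM in the 8 classes of CTRL. A probe reads mRNA of the vector and of the endogenous gene alike wherever the vector holds its target, so forced and endogenous transcripts cannot be told apart.

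**Figure D2:**
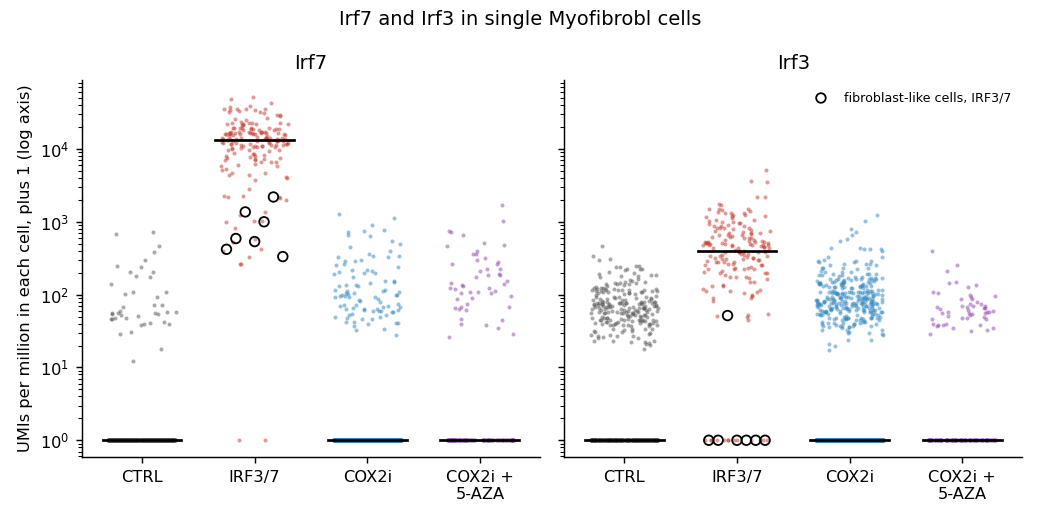
Irf7 and Irf3 in single Myofibrobl cells, as CPM plus 1 on a log axis, by library, with each point a cell and open circles marking the 7 fibroblast-like cells of IRF3/7. IRF3/7 cells lie around a median of 13276 CPM for Irf7, above the 716 CPM of the highest CTRL cell in 163 of 172 cases.

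The comparison of IRF3/7 with CTRL asks how these cells differ when the cancer cells are forced to express both factors. Antiviral effectors rose in 34 of 36 measured members and GBP and IRG GTPases in 15 of 15, whereas interferon receptors and signalling genes rose in 5 of 12 and interferon regulatory factors in 4 of 7, of which Irf3 and Irf7 are the forced genes and Irf1 and Irf9 the others. S phase genes fell in 16 of 23, and matrix genes differed in both directions. Among 10116 genes with at least 50 UMIs in the 2 libraries together, 539 (5.33%) rose and 1112 (11.0%) fell. The median over all genes was -0.29, and relative to that median 764 were higher and 586 lower. Scaling by median-of-ratios size factors gave 762 higher and 588 lower, so 56.4% of the changed genes were higher under it and 32.6% under CPM. Whether falls outnumber rises thus depended on the scaling. A gene at 0 on the CPM scale was 0.29 above the typical gene.

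The antiviral effectors, proteins that block steps of viral growth, had a median log2 ratio of 4.49, and none fell. The guanylate-binding proteins and immunity-related GTPases (GBP and IRG families), which attack the vacuoles of intracellular microbes, had a median of 6.18. MHC class I presentation rose in 15 of 19 members, with a median of 3.38. In monocytes and macrophages of the same libraries, the counts were 35 of 36, 16 of 16 and 16 of 19, and the medians 3.71, 4.23 and 1.82, where 975 of all 11251 genes were higher. Of the interferon-stimulated genes that a published dendritic cell signature holds, 78 of 114 rose and 5 fell in the Myofibrobl cells. There 5.33% of all genes rose and 11.0% fell. Sensors of viral nucleic acid rose in 7 of 13 members, beside the same 5.33%. All 8 type I interferon ligand genes looked for were without values in the table used here.

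The 10 largest rises of genes reaching 100 CPM were Irf7, Ifi44, Iigp1, Ifit1, Cmpk2, Ifit3b, Ifit3, Usp18, Gbp2 and Igtp. Ifit3, whose protein binds partner IFIT proteins on viral RNA, stood at 3.22 CPM in CTRL and 964 CPM in IRF3/7, a log2 ratio of 8.23 (7.72 to 8.79). Ifit3 and Ifit3b are near-identical copies, and the division of reads between them is uncertain. Gbp2 (chr3:142620602-142638008, plus strand) stood at 8.20, 1192, 140 and 859 CPM in CTRL, IRF3/7, COX2i and COX2i + 5-AZA, and its log2 ratio in IRF3/7 was 7.18 (6.86 to 7.52). Usp18, the protease that removes ISG15 from its targets and damps the interferon receptor, rose from 1.97 to 396 CPM. Upstream of these, Stat2 rose from 7.47 to 209 CPM and Irf9 from 12.5 to 85.6 CPM, both of which encode parts of the transcription complex formed behind the type I interferon receptor. Irf1, which responds more to interferon-γ, rose from 137 to 359 CPM.

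In antigen presentation, the light chain gene B2m rose from 280 to 1290 CPM (log2 ratio 2.20), the peptide transporter gene Tap1 from 7.78 to 198 CPM (4.67) and Nlrc5, the transactivator of MHC class I, from 4.57 to 124 CPM (4.77). Of 7 MHC class II genes 0 rose and 1 fell in the Myofibrobl cells, where 5.33% of all genes rose and 11.0% fell. Their median was -0.94. In monocytes and macrophages 6 of 7 rose, with a median of 1.53, where 975 of all 11251 genes were higher. Without clusters 4, 8, 9 and 10 the class II median turned to 0.70. Of the checkpoint ligands 4 of 11 rose and 1 fell, beside the same 5.33% and 11.0% of all genes. Cd274, which encodes PD-L1, rose from 4.46 to 58.2 CPM and Cd47, the signal against phagocytosis, from 327 to 897 CPM. Vsir fell from 53.2 to 19.4 CPM. The log2 ratio of Vsir was -1.46 over all cells and -0.10 without clusters 4, 8, 9 and 10, so its call was lost.

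**Figure D3:**
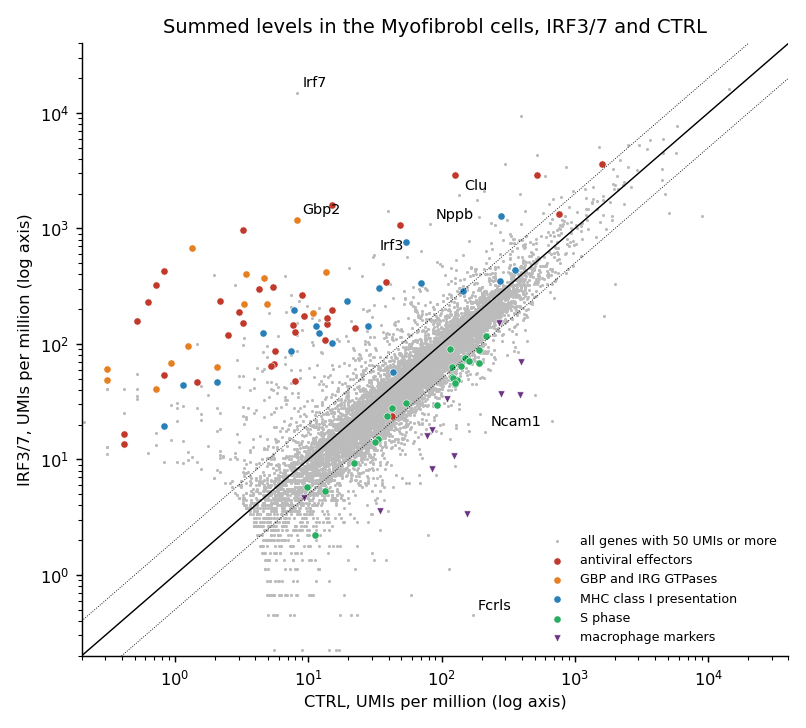
Summed level of each gene in the Myofibrobl cells of CTRL (horizontal, log axis) and IRF3/7 (vertical, log axis), in CPM, with the solid line at equality, dotted lines at 2-fold and a count of 0 drawn at 3 UMIs. Of the antiviral genes 34 of 36, of the GBP and IRG genes 15 of 15 and of the MHC class I genes 15 of 19 lie above the upper dotted line, with Irf7 at 14910 CPM, and 16 of 23 S phase genes lie below the lower one.

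The levels were also set against those of the immune cells in the same library, since free RNA from these could enter a droplet. C1qa, a macrophage gene, stood at 35.9 CPM in IRF3/7 Myofibrobl cells and at 2294 CPM in IRF3/7 monocytes and macrophages. Gbp2 stood at 1192 and 1629 CPM, Bst2 at 2895 and 2454 CPM, and Ifit3 at 964 and 1334 CPM in the same 2 sets of cells. The part of free RNA in these levels was not tested.

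The start regions of these genes were read because members that moved together may share sequence. In the 250 bases before the start (RefSeq, GRCm38.p6, the assembly of mm10), the interferon-stimulated response element was searched as GAAANNGAAA or, on the other strand, TTTCNNTTTC, and the gamma-activated site as TTCNNNGAA, which reads alike on both strands. Of 32851 promoters, 978 (2.98%) held the first and 2306 (7.02%) the second. Of the 10 genes, 8 were in the promoter table. The first motif was present in 5 of these, Ifit1, Ifit3b, Ifit3, Gbp2 and Igtp, and the second in Igtp. The letters were not found in these windows of Irf7, Ifi44 and Cmpk2, and Iigp1 and Usp18 were not in the table. The matches are shown on the plus strand with 10 bases on each side and the motif in capitals, with the distance of the first motif base from the RefSeq start.
Ifit1, chr19:34640775-34640804, -104: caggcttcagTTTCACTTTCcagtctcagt
Ifit1, chr19:34640794-34640823, -85: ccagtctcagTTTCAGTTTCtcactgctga
Ifit3, chr19:34583363-34583392, -156: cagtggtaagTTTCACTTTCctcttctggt
Ifit3, chr19:34583397-34583426, -122: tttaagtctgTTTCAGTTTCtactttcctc
Gbp2, chr3:142620594-142620623, -59: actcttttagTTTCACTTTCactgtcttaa
Igtp, chr11:58199512-58199541, -34: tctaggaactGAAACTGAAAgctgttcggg
Igtp, gamma-activated site, chr11:58199501-58199529, -45: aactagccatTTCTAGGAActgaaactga
Ifit3b held the same 2 stretches as Ifit3, at chr19:34607759-34607788 and chr19:34607793-34607822. The RefSeq start of Gbp2 lies within the gene as placed by the GENCODE annotation, which begins at chr3:142620602, so its motif is before the one start and just after the other. A match is a description of the sequence and not a bound site.

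The fibroblast-like cells of cluster 9 were set beside cluster 5. In the 7 such cells of IRF3/7, Irf3 stood at 14.1 CPM (0.357 to 78.6), which is 1 UMI, against 583 CPM in cluster 5, and Irf7 at 1072 CPM (844 to 1341), against 15219 CPM. Antiviral effectors summed to 24250 CPM (23117 to 25424) in the fibroblast-like cells and 19149 CPM in cluster 5, GBP and IRG GTPases to 5936 and 4072 CPM, and MHC class I genes to 6965 and 5056 CPM. In the 7 fibroblast-like cells of CTRL these sums were 1941, 17.03 and 954 CPM, and Irf7 was at 17.03 CPM (0.431 to 94.9). For single genes, Gbp2 stood at 1706 CPM in IRF3/7 and 17.03 CPM in CTRL, and B2m at 860 and 85.1 CPM, while Ifit1 and Ifit3 stood at 395 and 634 CPM in IRF3/7. Neither had a UMI among the 58724 of these cells in CTRL, for which the exact upper bound is 62.8 CPM. These are 7 cells in each library, from at most 3 tumours.

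Within IRF3/7, the level of Irf7 in a cell was set beside that of its interferon genes. Over the 147 cells of clusters 1, 2, 3, 5, 6 and 7, which share 1 library but differ in depth, Spearman's rho of Irf7 was 0.007 with the summed antiviral effectors, 0.088 with Irf3, -0.12 with GBP and IRG GTPases and -0.16 with MHC class I genes, whereas antiviral effectors and GBP and IRG GTPases gave 0.68 with each other. With the UMIs of the cell, rho of Irf7 was -0.02. Pearson's r on the log2 scale was 0.21 for Irf7 with antiviral effectors, 0.15 with Irf3 and 0.28 with the UMIs of the cell. It was 0.01 with GBP and IRG GTPases and -0.02 with MHC class I genes. The pairs of Irf7 with antiviral effectors and with UMIs thus differed by the measure used. The 12 IRF3/7 cells of cluster 4, led by macrophage genes, had Irf7 at 10902 CPM and Irf3 at 544 CPM, near the values of cluster 5.

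**Figure D4:**
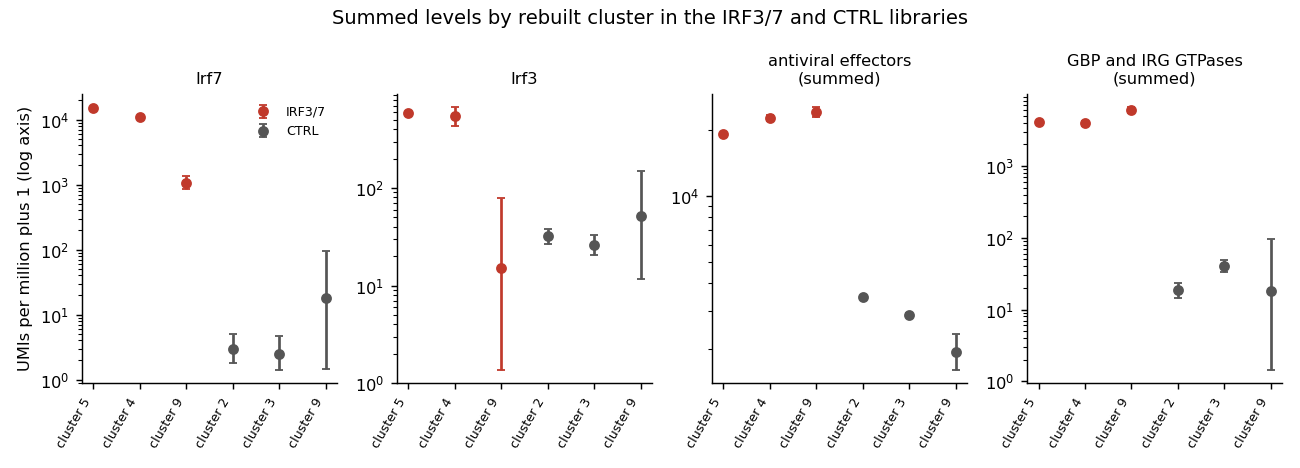
Irf7, Irf3 and the summed antiviral and GBP and IRG genes, as CPM plus 1 on a log axis with exact 95% counting intervals, in clusters 5, 4 and 9 of IRF3/7 and clusters 2, 3 and 9 of CTRL. The fibroblast-like cluster 9 of IRF3/7 has Irf3 at 14.1 CPM, from 1 UMI, and antiviral genes at 24250 CPM, beside 583 and 19149 CPM in cluster 5.

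Of the chemokines and cytokines 11 of 28 rose and 5 fell in IRF3/7 against CTRL, with a median of 0.31, where 5.33% of all genes rose and 11.0% fell. Il1rl1, the receptor of the alarmin that Il33 encodes, stood at 393, 9468, 219 and 749 CPM in CTRL, IRF3/7, COX2i and COX2i + 5-AZA, a log2 ratio of 4.59 (4.54 to 4.64) in IRF3/7, and at 74.6 CPM in IRF3/7 monocytes and macrophages. Il33 itself rose from 37.6 to 213 CPM and was detected in 46 of the 172 IRF3/7 cells. The 10% of cells with most of it held 93.4% of its UMIs in IRF3/7 and 86.7% in CTRL. Il11, a cytokine that signals through gp130, rose from 207 to 2113 CPM, a log2 ratio of 3.35 that became 2.21 without cells sharing a droplet barcode. The T cell attractants Cxcl10 and Cxcl9 rose from 20.1 to 456 CPM and from 0.519 to 33.5 CPM, Ccl5 from 0.934 to 29.9 CPM, and the monocyte attractant Ccl2 from 190 to 1249 CPM, whereas Tgfb2 fell by 1.77 on the log2 scale. Cxcl9 was detected in 16 of the 172 IRF3/7 cells, and 1 cell held 58.0% of its UMIs. Fst, the activin antagonist follistatin, rose from 30.5 to 568 CPM.

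Of the prostaglandin pathway, which COX2 feeds, 5 of 12 measured members rose in IRF3/7 against CTRL and none fell, beside 5.33% and 11.0% of all genes. Ptgs2, which encodes COX2 (chr1:150100031-150108227, plus strand), stood at 861 CPM in CTRL, 3436 CPM in IRF3/7, 457 CPM in COX2i and 653 CPM in COX2i + 5-AZA, and Ptges, the terminal synthase for prostaglandin E, at 310, 1187, 172 and 284 CPM. Ptgs1, which encodes COX1, stood at 167, 457, 64.8 and 131 CPM. All 3 were highest in IRF3/7 and lowest in COX2i. Other genes of synthesis were within 2-fold in IRF3/7, with log2 ratios of -0.07 for Ptges2, -0.27 for Ptges3 and 0.25 for Pla2g4a. Ptgis rested on 1 UMI in CTRL, which gives a log2 ratio of 6.19 with an interval of 3.62 to 11.54. Growth factor and MAPK output genes rose in 7 of 21 members and fell in 1, with the EGFR ligand Ereg going from 235 to 1116 CPM and Ier3 from 602 to 2868 CPM.

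The matrix differed gene by gene. Of the genes for matrix proteins other than collagens and for collagen processing, 8 of 31 rose and 6 fell, where 5.33% of all genes rose and 11.0% fell. Fn1, fibronectin (chr1:71585520-71653200, minus strand), stood at 8976, 1285, 9088 and 5320 CPM in CTRL, IRF3/7, COX2i and COX2i + 5-AZA, so IRF3/7 stood far below the other libraries, with a log2 ratio of -2.80 (-2.84 to -2.77) against CTRL. Bgn, biglycan, fell from 2000 to 329 CPM and Postn, periostin, from 56.7 to 6.24 CPM, with log2 ratios for Postn of -3.18 over all cells and -5.06 without clusters 4, 8, 9 and 10. In the other direction Thbs1, thrombospondin, rose from 301 to 3625 CPM and Tnc, tenascin C, from 185 to 1754 CPM. Thbs1 is also high in monocytes and macrophages of IRF3/7 (5112 CPM), and without clusters 4, 8, 9 and 10 the log2 ratios of Thbs1 and Tnc were larger, 5.09 and 4.84 against 3.59 and 3.25. Collagens rose in 2 of 21 members and fell in 5, Col7a1 from 90.7 to 7.36 CPM among them, and Col1a2 fell from 4772 to 1983 CPM but not by 2-fold under median-of-ratios scaling (-0.98). Among proteases and their inhibitors 5 of 17 rose and 3 fell. Mmp19 rose from 52.1 to 288 CPM and the inhibitor Timp1 from 971 to 2124 CPM, and Mmp9 fell from 69.3 to 6.24 CPM.

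Genes of DNA replication were lower in IRF3/7. Of 23 S phase genes 16 fell and 0 rose, with a median of -1.16, where 11.0% of all genes fell, and under median-of-ratios scaling 7 fell, with a median of -0.88. Mcm6, a subunit of the replicative helicase, went from 191 to 68.7 CPM and Uhrf1, which guides maintenance of DNA methylation at the fork, from 126 to 44.6 CPM. Of 24 genes of G2 and M phase 8 fell (4 under median-of-ratios scaling) and 0 rose, and Top2a stood at 357 CPM in CTRL and 211 CPM in IRF3/7, within 2-fold. In monocytes and macrophages 21 of 23 and 24 of 24 genes were lower, where 3561 of all 11251 genes were lower and the median over all genes was -0.54. The stress response genes Trib3 and Asns fell from 129 to 18.7 CPM and from 372 to 84.5 CPM, with 4 of 15 members of their list lower, beside the same 11.0%. Thinning each cell took Trib3 from a log2 ratio of -2.79 to -5.58. Of 18 p53 targets measured none reached 2-fold over all cells, but Btg2, at 0.79, was 1.08 under median-of-ratios scaling and 1.32 without clusters 4, 8, 9 and 10, and Bbc3, at -0.97, was -1.04 without those clusters, -1.09 with equal weight per cell and -1.21 without cells sharing a droplet barcode.

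The 10 largest falls of genes reaching 100 CPM were led by Fcrls, Pf4 and Mrc1, which are macrophage genes, and included F13a1, C1qc, C1qa and Apoe. Fcrls rested on 2 UMIs in IRF3/7, with a log2 ratio of -8.58 (-11.6 to -6.73). The macrophage marker list stood at 2011 CPM in CTRL and 393 CPM in IRF3/7 beside them. In monocytes and macrophages of these libraries that list went from 32756 to 19846 CPM. There Mrc1 went from 2550 to 120 CPM, C1qa from 6663 to 2294 CPM and C1qc from 2189 to 728 CPM. Without clusters 4, 8, 9 and 10 the ratios in the Myofibrobl cells were smaller in size. They went from -3.26 to -0.62 for Apoe, whose call was lost, and from -3.44 to -2.06 for C1qa. For C1qc they went from -3.54 to -2.35 and for Mrc1 from -5.53 to -3.84. The other 3 of the 10 were Dmp1, an acidic matrix phosphoprotein gene, from 670 to 21.4 CPM, Gadd45a, a growth arrest gene, from 500 to 35.9 CPM, and Ncam1, a neural adhesion molecule gene, from 213 to 17.4 CPM.

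The comparison of COX2i with CTRL asks what differed with celecoxib alone. Here 373 of 10505 genes were higher (3.55%) and 96 lower (0.914%), with a median of 0.04 over all genes. The GBP and IRG GTPases rose in 14 of 15 members, with a median of 3.22. Antiviral effectors rose in 17 of 34 and MHC class I genes in 10 of 19, with medians of 1.01 and 1.03. In monocytes and macrophages of these libraries 11 of 16 GBP and IRG genes rose, but 0 of 36 antiviral effectors and 0 of 19 MHC class I genes, where 187 of all 11447 genes were higher. Gbp2 went from 8.20 to 140 CPM, a 17.1-fold rise, yet it was detected in only 19.9% of COX2i cells, and the 10% of cells with most of it held 94.5% of its UMIs. In IRF3/7 it was detected in 86.0% of cells, and the top 10% held 63.0%. No cell class was taken as free of Gbp2, so the share that free RNA gives is not known.

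The rise of the interferon genes in COX2i depended on the cluster. In cells of the largest cluster alone (62 of CTRL and 274 of COX2i), the GBP and IRG median was 1.20, and Irf9 and Cxcl10, at 1.01 and 1.35 over all cells, came to 0.07 and 0.24. The summed GBP and IRG GTPases were 92.4 CPM in CTRL and 321 CPM in COX2i in cluster 1, 17.5 and 269 CPM in cluster 2, 39.9 and 508 CPM in cluster 3 and 156 and 683 CPM in cluster 4. Each of these 4 clusters was thus higher in COX2i, and the base level differed between them.

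In the matrix lists of COX2i, 5 of 21 collagens and 6 of 31 genes of other matrix and collagen processing rose, and none fell. Of 18 proteases and inhibitors 4 rose and none fell, where 3.55% of all genes were higher and 0.914% lower. Postn went from 56.7 to 313 CPM (log2 ratio 2.47), Sulf1, an extracellular sulfatase gene, from 67.7 to 245 CPM, and Col1a2 from 4772 to 9669 CPM. The log2 ratio of Col1a2 was 1.02, and 0.99 under median-of-ratios scaling, so its call was lost there. Postn and Sulf1 are leading genes of cluster 1, which held 11.2% of CTRL and 30.0% of COX2i cells. With finer clusters (Leiden resolution 1) the matched cluster held 7.94% of CTRL and 18.7% of COX2i cells. The part of these shares in the rise of Postn and Sulf1 was not tested. Hypoxia genes rose in 6 of 20, beside the same 3.55% of all genes. Among them Egln3, an oxygen-sensing prolyl hydroxylase gene, rose from 97.9 to 282 CPM and Bnip3 from 29.8 to 79.3 CPM. Adm rose from 12.8 to 92.5 CPM and Car9 from 6.43 to 43.1 CPM. In the largest cluster alone Adm and Car9 gave log2 ratios of 1.77 and 1.34 against 2.86 and 2.74 over all cells. Igfbp7 stood at 23.6 and 101 CPM, a log2 ratio of 2.10 that was 0.30 without clusters 4, 8, 9 and 10.

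Fewer genes fell in COX2i. Ptgs1 fell from 167 to 64.8 CPM, with a log2 ratio of -1.37 (-1.49 to -1.24), and Ptgs2 and Ptges gave -0.92 and -0.85, within 2-fold. Il11 fell from 207 to 89.2 CPM, although its ratio was -0.87 without clusters 4, 8, 9 and 10, and Nppb fell from 81.9 to 37.4 CPM. The tetraspanin gene Cd9 fell from 1934 to 793 CPM and Cspg4, a proteoglycan gene of melanoma and pericytes, from 449 to 174 CPM. The largest fall of a gene reaching 100 CPM, that of the neutrophil gene S100a9 from 111 to 2.74 CPM, came with a fall of S100a8, another neutrophil gene, from 78.3 to 3.33 CPM. The log2 ratio of S100a9 was -5.34, and -1.79 without clusters 4, 8, 9 and 10.

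In COX2i + 5-AZA against COX2i, of 10304 genes 227 (2.20%) were higher and 181 (1.76%) lower, with a median of -0.05. The balance turned with each cell thinned to 2000 UMIs (130 higher, 295 lower) and in the largest cluster alone (160 higher, 183 lower). The GBP and IRG GTPases rose in 16 of 16 members (median 2.56), as they did in monocytes and macrophages (16 of 16, median 2.11, where 635 of all 11467 genes were higher). The size of the rise differed by cluster. Their sum went from 321 to 2988 CPM in cluster 1 and from 269 to 2298 CPM in cluster 2. In cluster 4 it went from 683 to 2264 CPM, but in cluster 3 only from 508 to 568 CPM. Gbp2 went from 253 to 136 CPM in cluster 3. MHC class I genes rose in 13 of 19 and antiviral effectors in 13 of 34. Cxcl9 went from 22.2 to 218 CPM, Cxcl10 from 51.4 to 470 CPM, Irf1 from 216 to 632 CPM and Cd274 from 10.6 to 61.5 CPM. In COX2i + 5-AZA Cxcl9 was detected in 46 of 160 cells, and 1 cell held 25.2% of its UMIs. Gbp2 was detected in 67.5% of COX2i + 5-AZA cells, and its level of 859 CPM lay nearer to that of IRF3/7, at 1192 CPM, than to that of COX2i, at 140 CPM. Ifit3 did not follow, at 23.3 CPM in COX2i, 43.3 CPM in COX2i + 5-AZA and 964 CPM in IRF3/7.

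Of 16 immediate early and heat shock genes 5 rose and 0 fell, where 2.20% of all genes were higher and 1.76% lower. The chaperone gene Hspa1b went from 944 to 2590 CPM and Dnajb1, another, from 524 to 1271 CPM. In the unfolded protein and integrated stress list 0 of 15 rose and 3 fell, Trib3 from 91.1 to 20.6 CPM, Chac1 from 78.6 to 27.4 CPM and Ddit3 from 158 to 63.6 CPM, the last at -0.95 in the largest cluster against -1.32 over all cells. Of 20 germline genes known to be silenced by methylation 6 were in the table and 1 had enough UMIs to compare, with a log2 ratio of -0.12. No S phase gene of 23 reached 2-fold, beside the same low shares of all genes. The largest falls again included macrophage genes, Fcrls from 331 to 34.8 CPM and Apoe from 776 to 233 CPM, with the macrophage marker sum at 2591 and 1858 CPM.

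Against CTRL, which both drug comparisons share, COX2i + 5-AZA had 420 of 10064 genes higher (4.17%) and 150 lower (1.49%), and with each cell thinned to 2000 UMIs 141 higher and 188 lower. All 16 GBP and IRG GTPases rose (median 5.97), as did 17 of 19 MHC class I genes (2.58), 28 of 34 antiviral effectors (2.09) and 12 of 16 immediate early and heat shock genes (1.18). Among genes reaching 100 CPM, Cxcl9 gave the largest rise, a log2 ratio of 8.72 (7.49 to 10.35) from 5 UMIs in CTRL, which was 4.49 in the largest cluster alone.

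**Figure D5:**
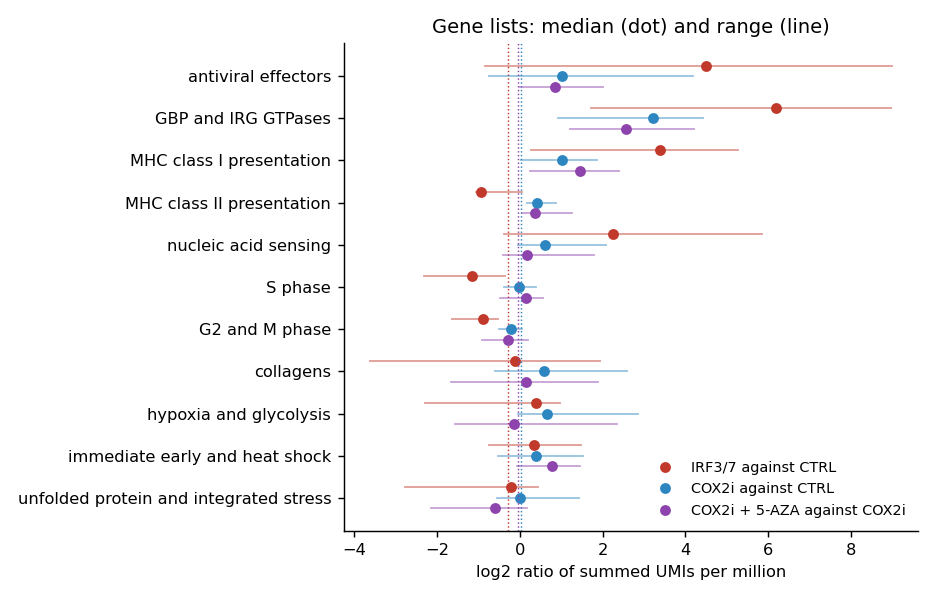
Median (dot) and range (line) of the log2 ratios of summed CPM over the measured members of 11 gene lists, for IRF3/7 against CTRL, COX2i against CTRL and COX2i + 5-AZA against COX2i, with a dotted line at the median of all genes in each comparison. The GBP and IRG list has medians of 6.18, 3.22 and 2.56, and the S phase list has a median of -1.16 in IRF3/7 and medians of -0.01 and 0.14 in the other comparisons.

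The 6 marker genes of the class did not keep together across the libraries. Clu, which encodes the secreted chaperone clusterin, stood at 136, 1929, 204 and 368 CPM in CTRL, IRF3/7, COX2i and COX2i + 5-AZA. Nppb, the precursor gene of a natriuretic peptide, stood at 81.9, 1084, 37.4 and 70.7 CPM. Both were thus far higher in IRF3/7 than in any other library, with log2 ratios to CTRL of 3.83 (3.75 to 3.92) and 3.73 (3.62 to 3.84). Ccn1, a matricellular protein gene, stood at 507, 746, 988 and 2574 CPM, highest in COX2i + 5-AZA. The collagen gene Col1a1 stood at 1845, 1691, 3155 and 5257 CPM and Col3a1 at 2630, 2282, 5107 and 5610 CPM, within 2-fold between IRF3/7 and CTRL and more than 2-fold higher in COX2i + 5-AZA than in CTRL. The latter calls were lost in the largest cluster, where the log2 ratios were 0.91 for Col1a1 and 0.69 for Col3a1, and that of Col3a1 was 0.94 without clusters 4, 8, 9 and 10. The 7 fibroblast-like cells of COX2i + 5-AZA stood at 73969 CPM of Col1a1. In IRF3/7 Col1a1 was concentrated in few cells: 1 cell held 24.7% of its UMIs, and the 7 fibroblast-like cells stood at 57241 CPM. Its log2 ratio of IRF3/7 to CTRL was -0.13 over all cells and -0.69 without clusters 4, 8, 9 and 10. Mgp, matrix Gla protein, stood at 4539, 2631, 3952 and 1676 CPM, lowest in COX2i + 5-AZA. Its log2 ratio there against COX2i was -1.24 over all cells, -0.92 without cells sharing a droplet barcode and -0.63 in the largest cluster.

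The study listed genes that differ between RTT and therapy-naive (NTT) cancer cells sorted from tumours, in samples other than these. Of the study's genes higher in RTT than in NTT cells, 63 of 221 rose in IRF3/7 against CTRL and 33 fell. Of its genes lower in RTT cells, 94 of 260 rose and 70 fell, where 5.33% of all genes rose and 11.0% fell. The list of lower genes includes the forced gene Irf7, interferon genes such as Isg15 and Ifit1, and macrophage genes such as C1qc and Mrc1. In COX2i against CTRL, the first list had 21 of 224 higher and 20 lower, and the second 104 of 286 higher and 5 lower, where 3.55% of all genes were higher and 0.914% lower.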

How the data were processed

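Cells of YUMM1.7-OVA RTT tumours sorted for CD45 were fixed for 22 h and assayed with probe pairs (Chromium Flex). Per the labels, the submitters' notes name Cell Ranger 7.1.0 and mm10. The authors filtered cells and genes, integrated several experiments and annotated clusters. Their deposited table holds UMI counts as whole numbers, not normalised, for 12584 genes and 34447 cells, and 12422 of the genes had a UMI in a Myofibrobl cell. No doublet caller was run. Cells rich in immune transcripts were left out in an alternative instead (15, 2, 41 and 2 cells).

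Counts were summed per library and divided by total UMIs (CPM). With 1 library per group no count model was fitted. Poisson intervals for sums, Clopper-Pearson intervals for shares and conditional intervals for ratios were exact at 95% and cover counting error only, so depth alone sets them. PCR duplicates were already collapsed by UMI. Genes needed 50 UMIs in both libraries together, and members of lists 20. A gene was called at a log2 ratio of 1 or more in size. The calculations were tested on simulated data. Clustering (2000 variable genes, 30 components, 15 neighbours, Leiden resolution 0.5) used scikit-learn 1.9.0, leidenalg 0.10.2 and igraph 0.11.9 in Python 3.11.15 with numpy 2.4.6, pandas 2.3.3, scipy 1.17.1 and matplotlib 3.10.9.

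Members, lists and alternatives were chosen with earlier results of these data known. Genes were named by rule: all class markers, interferon regulatory factors, prostaglandin genes and genes altered in the line, from every other list the 4 with the highest CPM and the 2 with the largest change per comparison, the leading 10 of each cluster, and per comparison the 10 largest rises and falls reaching 100 CPM in the higher library. Alternatives were another scaling, other UMI minimums (20 and 200), equal weight per cell, thinning to 2000 UMIs, leaving out sets of cells, and clustering at resolution 1 or with interferon genes kept.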

Additional observations from a re-analysis of the deposited data

How the results depend on the processing

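The number of genes 2-fold higher or lower kept within 1.5 times of its main value in 57 of 78 repeats. In IRF3/7 against CTRL, 539 higher became 309 with cells thinned to 2000 UMIs, and 1112 lower became 588 with median-of-ratios scaling, 601 with thinning and 708 with a minimum of 200 UMIs. In COX2i against CTRL, 373 higher became 193 with thinning, 210 in the largest cluster and 181 at 200 UMIs, and 96 lower became 58 at 200 UMIs. In COX2i + 5-AZA against COX2i, 227 higher became 130 with thinning and 115 at 200 UMIs, and 181 lower became 116 without cells rich in immune transcripts, 295 with thinning, 106 without clusters 4, 8, 9 and 10, 292 at 20 UMIs and 65 at 200 UMIs. The share of changed genes that were higher went from 55.6% to 30.6% with thinning there, and from 73.7% to 42.9% in COX2i + 5-AZA against CTRL. In COX2i + 5-AZA against CTRL, 420 higher became 141 with thinning, 169 in the largest cluster and 203 at 200 UMIs, and 150 lower became 229 with equal weight per cell, 232 at 20 UMIs and 79 at 200 UMIs. Fewer genes pass a higher minimum and thinning leaves fewer UMIs by construction. Yet with thinning in COX2i + 5-AZA against COX2i the genes compared went from 10304 to 7493 while those lower went from 181 to 295. The cause of this and of the other changes was not tested.

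The antiviral median of IRF3/7 against CTRL (4.49) was 4.77 with median-of-ratios scaling, 4.61 without immune-rich cells and 5.45 without clusters 4, 8, 9 and 10. Its MHC class I median (3.38) was 2.89 with thinning and 4.40 without those clusters. The GBP and IRG median of COX2i against CTRL (3.22) was 3.79 without shared droplets, 2.44 with thinning and 1.20 in the largest cluster, and that of COX2i + 5-AZA against COX2i (2.56) was 2.83 with equal weight per cell, 3.40 in the largest cluster and 2.91 without those clusters. Irf3 (4.22) was 4.51 with median-of-ratios scaling and 3.62 with thinning, and Irf7 (10.83) was 10.48 with equal weight per cell, 11.64 with thinning and 12.24 without those clusters. Myofibrobl cells were 6.19%, 2.72%, 10.0% and 1.59% of all cells of CTRL, IRF3/7, COX2i and COX2i + 5-AZA, and 7.56%, 10.5%, 10.8% and 2.09% of those with over 2000 genes, so IRF3/7 went from below to above CTRL. Of 80 repeats of the cluster shares 21 moved beyond their interval, and with interferon genes kept cluster 3 shared 170 of its 320 cells with its match.

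Of 8354 repeats of the log2 ratios of named genes, 11 reversed. In the largest cluster, Dmp1 came to 0.37 and Ptn to -1.05 in COX2i + 5-AZA against CTRL, and Igfbp7 to -0.54, Ly6a to -0.83 and Stat2 to -0.28 in COX2i against CTRL. Without those clusters, H2-Aa came to 0.50 in IRF3/7 against CTRL, S100a9 to 1.01 in COX2i + 5-AZA against CTRL and Plet1 to -2.02 in COX2i + 5-AZA against COX2i. Without shared droplets, Plet1 came to -2.66 and Lcn2, in COX2i + 5-AZA against CTRL, to -0.79, and with equal weight per cell Ptn came to 0.027 in IRF3/7 against CTRL. Leaving out clusters 4, 8, 9 and 10 was chosen after seeing the data. The largest cluster gave no value for IRF3/7, which has 0 cells there. No paired analysis was possible because each group has 1 library. Replicates cannot be left out for the same reason, and genes with few UMIs, such as Cxcl9 in CTRL, are limited by depth.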
